A study of Mus musculus with 4 samples.

Results

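The Trav segments are the variable (V) gene segments of the mouse T cell receptor alpha locus on chromosome 14. They were taken as every symbol starting with Trav on that chromosome in a RefSeq table of gene positions for GRCm38.p6 (mm10), which gave 130 of the 49993 genes with a position. By the number in the symbol they form 23 families, and by the suffix they form 56 plain, 40 d and 34 n copies. The table types 114 as V segments and 16 as V segment pseudogenes. A region of accessible chromatin was put by a segment when it lay within 1000 bp of it.

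Open chromatin was mapped by ATAC-seq, which uses a transposase that inserts adapters where DNA is accessible, in thymocytes sorted as CD4+CD8+ double-positive (DP) cells from C57BL/6 mice, with 50000 cells per sample. Wild-type (WT) mice (CHAF1bfloxp/floxp) had loxP sites in both Chaf1b alleles and no Cre, and knockout (KO) mice (Cd4-cre;CHAF1bfloxp/floxp) had the same alleles with Cd4-cre, so that the floxed alleles were common to both groups. Cd4-cre is driven by Cd4 regulatory sequence and deletes in thymocytes that have switched on Cd4. Each group had 2 samples, pooled by the authors into 1 list of regions, so that no value per sample and no test between the groups could be had. The labels give no ages.

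A T cell receptor alpha chain is assembled by V(D)J recombination, in which the RAG recombinase joins a Trav segment to a Traj segment and removes the DNA between them. In DP thymocytes this joining can be repeated on the same chromosome, moving to Trav segments farther from the Traj cluster. A V segment has its promoter on the side away from the Traj segments, and its recombination signal, the sequence that RAG cuts, at the end that faces them. In mice the central part of the locus has been copied, and the d and n suffixes mark the copies. Segments with dv in the name can also join to delta segments. Chaf1b encodes a subunit of chromatin assembly factor 1, which deposits histones on newly replicated DNA.

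The lists held 15215 WT and 7645 KO regions. The depth behind the KO list was 0.752 times that behind the WT list, judged by the genome background of 1.37 reads in WT and 1.03 in KO that the peak caller used. Both lists had a region at the start of Chaf1b, with 14 reads in WT and 13 in KO. The extent of the deleted part is not given in the labels, so this region does not check the genotypes. Of 12 marker genes of DP thymocytes 7 had a WT region within 1000 bp of a gene end and 1, Cd8b1, also a KO region, where 19.1% of the other genes of the table had a WT and 11.5% a KO region at an end. Among those with no such region in either list were Cd4, Cd8a, Cd3e and Dntt. Markers of myeloid cells (0 of 5), erythroid cells (0 of 4) and thymic epithelium (0 of 4) had none, while Ebf1 of 5 B cell markers had a WT region and Prf1 of 4 natural killer markers had a region in both lists.

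A region lay by 38 of 130 Trav segments in WT (29.2%, exact Clopper-Pearson 95% interval 21.6 to 37.8) and by 9 in KO (6.92%, 3.21 to 12.7). All 9 segments with a KO region also had a WT region. Intervals cover counting error only and treat segments as separate. Among 49809 other genes of the table, which were not quite all of the others, 24.2% had a WT region and 14.8% a KO region within the same distance. The shares of other genes with a region at an end were taken over the same number. Most of those genes are much longer. Among the 11040 other genes within the length range of the Trav segments (213 to 1739 bp), the shares were 4.65% in WT and 2.58% in KO. The median Trav segment was 502 bp long.

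The regions sat close to the segments. Windows of 1000 bp around the segments covered 323 kb, or 18.0% of the 1796 kb from Trav1 to the end of Trac, and held 40 of the 43 WT regions and 11 of the 11 KO regions of that stretch. The WT regions by Trav segments were 200 to 441 bp wide, with a median of 235 bp against 307 bp over all WT regions. Their fold enrichment, the authors' value for reads at the summit over the local background, had a median of 6.32 against 6.52 over all WT regions. The number of reads at the summit, worked out from that fold and its p-value, had a median of 15 against 18. In KO the 11 regions had a median fold of 6.72 and 15 reads, close to the 6.67 and 15 of the whole list.

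**Figure D1:**
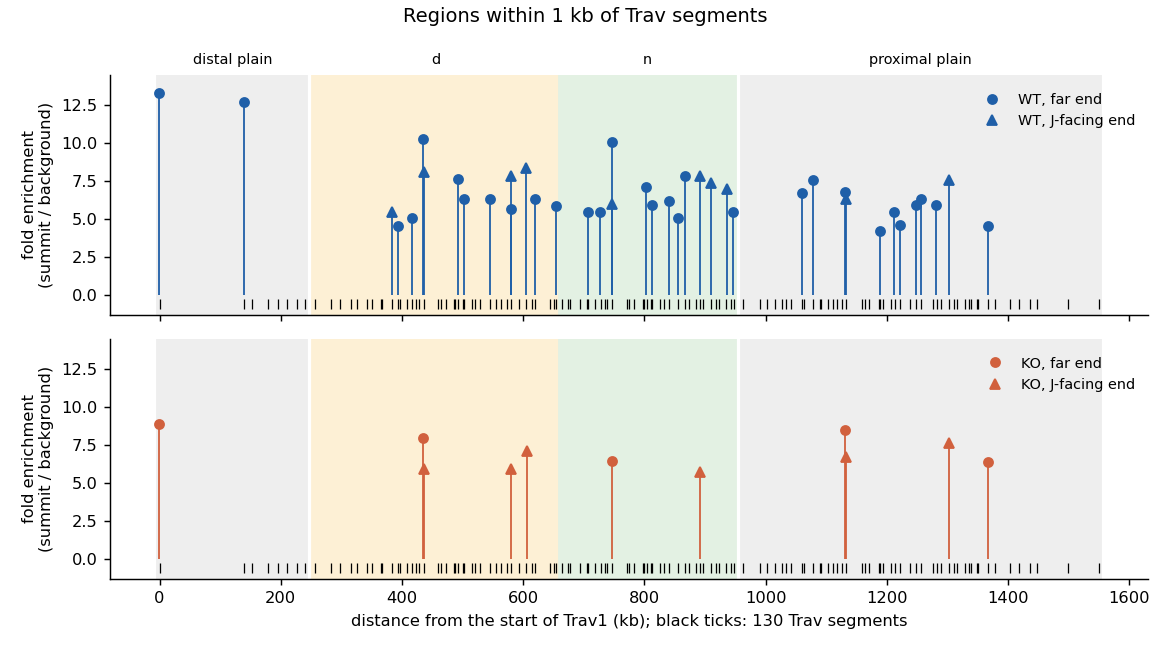
Fold enrichment of each region (y axis) against its distance in kb from the start of Trav1 (x axis), for the WT list above and the KO list below, with a tick for each of the 130 segments. Circles are regions nearer the segment end away from the Traj segments and triangles regions nearer the end facing them. The 40 WT regions recur along the d, n and proximal plain segments, the 2 highest lie in the distal plain stretch, and none lies by the last 7 segments.

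Along the chromosome the segments fall into 4 stretches, the distal plain segments (Trav1 to Trav6-2), the d copies, the n copies and the proximal plain segments (Trav7-2 to Trav23), which lie next to the Trd and Traj segments. A WT region lay by 2 of 8 distal plain, 11 of 40 d, 13 of 34 n and 12 of 48 proximal plain segments. A KO region lay by 1, 3, 2 and 3 of them. The shares in WT were 25.0%, 27.5%, 38.2% and 25.0%, and their intervals overlapped (3.19 to 65.1, 14.6 to 43.9, 22.2 to 56.4 and 13.6 to 39.6). The regions were not evenly spread along the locus. The longest run without a region in either list was the 15 segments from Trav3-1 to Trav6d-5, over 215 kb. It went from the distal plain segments into the d copies. The next longest, with 7 segments each, lay among the proximal plain segments. They went from Trav17 to Trav23 (171 kb), from Trav7-2 to Trav8-1 (79.6 kb) and from Trav8-2 to Trav12-4 (40.5 kb).

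By family, 14 of 23 had a member with a WT region within 1000 bp and 4 (families 1, 6, 13 and 15) a member with a KO region. Of the 14, family 5 counted only through regions that lay nearer to segments of family 12. Family 15 had a WT region by 7 of its 9 segments and a KO region by 3. Family 12 had 5 of 10 in WT, family 9 5 of 11, family 13 5 of 13 and family 6 4 of 15. In KO, family 13 had 3, family 6 had 2, and families 9 and 12 had 0. The 9 families with no region were 7, 8 and 17 to 23, with 26 segments in all. Of these, family 7 had 14 segments (0 of 14, upper exact limit 23.2%) and family 8 had 5, while families 17 to 23 had 1 each. Segments of a family resemble each other in sequence and the copies more so, so that they are not independent draws.

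**Figure D2:**
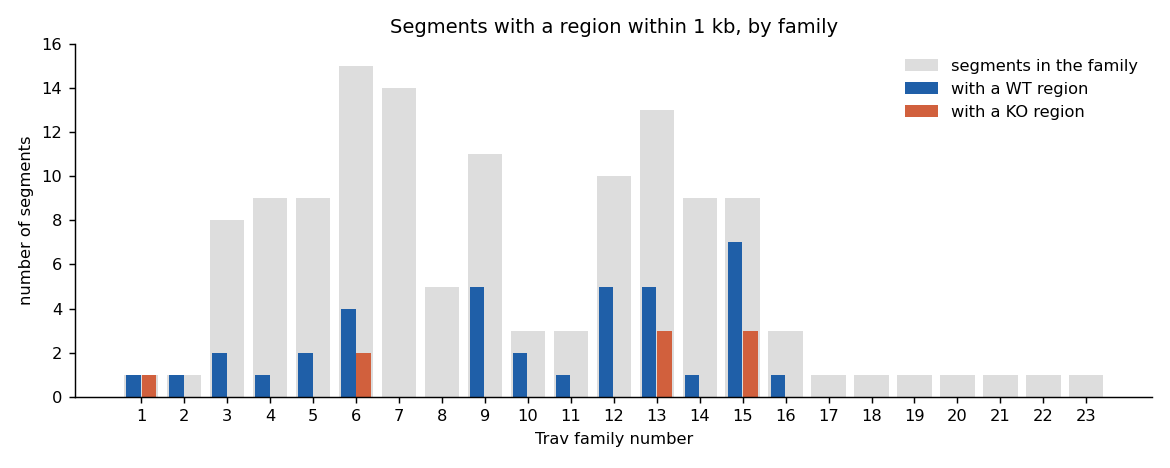
Number of segments (y axis) by Trav family (x axis), with all segments of the family in grey, those with a WT region within 1 kb in blue and those with a KO region in orange. Family 15 has 7 of 9 segments with a WT region and family 7 has 0 of 14.

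The distal single-member families had the highest WT values. Trav1, the segment farthest from the Traj cluster, had a WT region at 52427651 to 52428066 with a fold of 13.3 and 43 reads, and a KO region at 52427649 to 52428030 with a fold of 8.90 and 20 reads. Trav2 had a WT region at 52566952 to 52567311 with a fold of 12.7 and 39 reads and no KO region. Both WT regions stood above the 96th percentile of fold of the WT list, at 97.1 and 96.3. The next highest by a Trav segment had a fold of 10.3.

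Family 15 had 10 of the 40 WT regions and 5 of the 11 KO regions. Its first member, Trav15-1, had 2 regions at each of its copies in WT. At Trav15d-1-dv6d-1 they held 29 reads (52863128 to 52863438, fold 10.3) and 23 reads (52863893 to 52864176, fold 8.11). At Trav15n-1 they held 29 reads (53174070 to 53174415, fold 10.1) and 17 reads (53174862 to 53175092, fold 6.00). At Trav15-1-dv6-1 they held 17 reads (53559447 to 53559724, fold 6.77) and 16 reads (53560251 to 53560462, fold 6.34). The first region of each pair had its summit before the segment and the second just past its Traj-facing end, with these summits 744, 745 and 750 bp apart. In KO the d copy had both, with 19 reads (52863131 to 52863410, fold 7.94) and 14 reads (52863899 to 52864166, fold 5.91). The plain copy had both, with 19 reads (53559480 to 53559752, fold 8.47) and 15 reads (53560277 to 53560476, fold 6.72). The n copy had only the first, with 14 reads (53174142 to 53174347, fold 6.47). Thus 5 of the 6 WT regions at this duplicate set were in both lists. The other members with a WT region, Trav15d-3 and Trav15n-3, which are pseudogenes, Trav15n-2 and Trav15-2-dv6-2, had 10 to 15 reads and no KO region.

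In family 13, Trav13-3 had a WT region at each copy, at the end facing the Traj segments. Trav13d-3 held 20 reads in WT (53033204 to 53033506, fold 8.33) and 17 in KO (53033262 to 53033527, fold 7.14). Trav13-3 held 19 reads in WT (53729907 to 53730192, fold 7.58) and 18 in KO (53729953 to 53730190, fold 7.66). Trav13n-3 held 21 reads in WT (fold 7.38) and had no KO region. These 3 copies were alike in WT, and the copy without a KO region had the most WT reads. Trav13-5, the segment nearest the Traj cluster with any region, held 12 reads in WT (53795218 to 53795511, fold 4.58) and 12 in KO (53795219 to 53795418, fold 6.40). It was the only region under 16 WT reads found in both lists. Trav13n-4 had a WT region only, with 17 reads.

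In family 6, Trav6d-7 and Trav6n-7 each had a region at the Traj-facing end in both lists, with 24 reads in WT and 11 in KO at Trav6d-7 (WT 53007949 to 53008232) and 23 and 11 at Trav6n-7 (WT 53319114 to 53319396). The KO regions lay at 53007981 to 53008180 and at 53319143 to 53319342. The WT folds were 7.81 and 7.84 and the KO folds 5.90 and 5.71. Trav6d-7 had a further WT region with its summit before the segment and 17 reads, and Trav6-7-dv9 a WT region with its summit before the segment and 13 reads, both without a KO region. Trav6d-6 had a WT region with 12 reads.

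Families 9 and 12 had a WT region by 5 members each and no KO region. In family 9 these were Trav9d-3, Trav9n-3, Trav9n-4, Trav9-1 and Trav9-4, with 13 to 20 reads. In family 12 they were Trav12d-1, Trav12d-3, Trav12n-1, Trav12n-3 and Trav12-2, with 9 to 14 reads. The remaining WT regions, none in KO, lay by Trav3d-3, Trav3n-3, Trav4-4-dv10, Trav10d, Trav10, Trav11n, Trav14-2 and Trav16d-dv11, with 11 to 17 reads. Trav5n-3 and Trav5-2, both pseudogenes, counted as having a region only through that of a neighbour of family 12, at 866 and 926 bp. Of the 16 pseudogenes 4 had a WT region by this rule (25.0%) and 0 a KO region, against 34 of 114 other segments in WT (29.8%) and 9 in KO. Of the 10 segments with dv in the name, 6 had a WT region (60.0%, 26.2 to 87.8), against 32 of the other 120 (26.7%, 19.01 to 35.5). In KO the counts were 2 of 10 and 7 of 120. The 6 included Trav15d-1-dv6d-1, Trav15-1-dv6-1 and Trav15-2-dv6-2 of family 15, and the 2 in KO were the d and plain copies of Trav15-1. The n copy, Trav15n-1, has no dv in its symbol and also had a region in both lists. The parts of dv and of family in this difference were not tested.

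Trav11, used in the invariant receptor of natural killer T cells, has 3 copies of 557 bp. Trav11n (53135122 to 53135678) had a WT region 0.085 kb away (53134837 to 53135037) with 12 reads and a fold of 5.46, while for Trav11d and Trav11 the nearest WT regions were 2.36 and 3.67 kb away. The nearest KO regions were 38.2 kb from Trav11d, 38.5 kb from Trav11n and 39.6 kb from Trav11.

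The summits fell at 2 places relative to a segment. The gene table gives no strand, so the ends are named by the Traj segments, which lie at higher coordinates than every Trav segment. Of the 40 WT regions, 30 had their summit nearer the end away from the Traj segments, and 30 of 30 such summits lay before that end, by 2 to 287 bp with a median of 133 bp. The other 10 had it nearer the Traj-facing end, and 10 of 10 summits lay within 100 bp of that end, from 65 bp inside the segment to 89 bp past it. These 10 came from families 6, 10, 13 and 15 only. The first place is the side of the promoter and the second that of the recombination signal, though neither element was located here.

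In the 3 families with 5 or more WT summits before their segments, the distances kept apart from each other. In family 9 the 5 summits lay 264 to 287 bp before the segment, in family 12 the 5 lay 158 to 186 bp before it, and in family 15 the 7 lay 31 to 106 bp before it. These ranges did not overlap, but summits of other families lay inside some of them. Those of Trav2 (165 bp) and Trav14-2 (158 bp) fell in the range of family 12. Those of Trav4-4-dv10 (72 bp) and Trav16d-dv11 (93 bp) fell in that of family 15, as did that of Trav6d-7, at -97 bp from its start. The 3 KO summits of family 15 before a segment lay at -144 to -25 bp from its start. Between the lists, summits of the same region lay up to 89 bp apart. In family 6 the 3 summits were more spread, from 2 to 126 bp before the segment. Between copies of one duplicate set, summits at the same end differed by 0 to 29 bp over 18 pairs of copies, with a median of 14 bp. Among summits before the segment, the median difference was 16 bp (up to 124 bp) over 45 pairs within a family, copies included, and 86.5 bp over 390 pairs from different families. Read numbers differed between copies by 0 to 6, with a median of 1, over 9 pairs of d and n. They differed by 1 to 12, with a median of 5.5, over 4 pairs of d and plain, and by 1 to 12, with a median of 5, over 5 pairs of n and plain. The difference of 12 was at Trav15-1, with 29 reads at the d and n copies and 17 at the plain copy. Whether the reads of near-identical copies were placed uniquely was not tested.

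**Figure D3:**
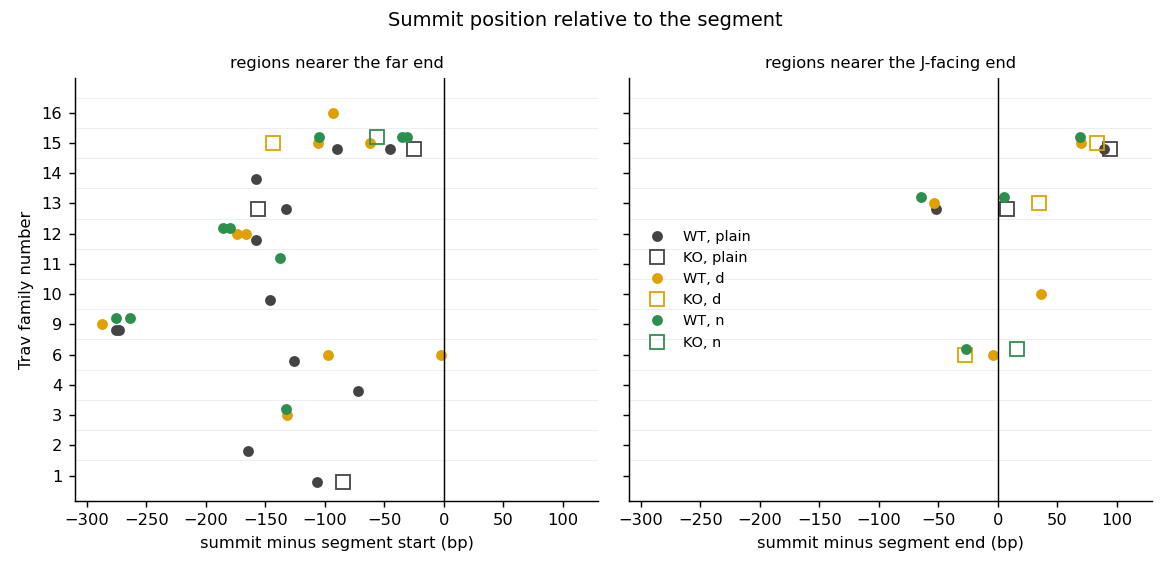
Summit position in bp (x axis) by Trav family (y axis), measured from the segment end away from the Traj segments for regions nearer that end (left) and from the Traj-facing end for the others (right). Filled circles are WT and open squares KO regions, coloured by copy. On the left, families 9, 12 and 15 occupy separate ranges, and summits of other families fall within those of families 12 and 15.

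Of the 32 duplicate sets with a plain, a d and an n copy, 13 had no WT region at any copy, 9 at 1, 7 at 2 and 3 at all 3 copies. The 3 were Trav6-7, Trav13-3 and Trav15-1. A region at either end counted, so copies counted together need not share a place. At Trav6-7 the n copy had only a Traj-facing region, the plain copy only one before the segment, and the d copy both. At Trav10 the d copy had a Traj-facing region and the plain copy one before the segment. The 9 included Trav5-2, whose plain copy counted only through a region nearer to Trav12-2. The d and n copies of a set both had a region in 7 sets, 1 of them alone in 7 and neither in 18. For d and plain the counts were 4, 13 and 15, and for n and plain 5, 12 and 15. In KO a region was present at all 3 copies of Trav15-1, at 2 copies of Trav6-7 and of Trav13-3, and at no copy of the other 29 sets. The KO regions of duplicated segments thus came from the same 3 sets that had a WT region, at either end, at every copy. How reads that fit more than 1 copy were handled is not known. It bears on all these calls by copy, those of Trav11 included.

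Among the 40 WT regions, 11 were also in the KO list by overlap (27.5%, 14.6 to 43.9), against 46.2% of all WT regions, and 11 of 11 KO regions overlapped a WT region, against 92.6% of all KO regions. The regions in both lists had 12 to 43 WT reads with a median of 23, and the 29 in WT only 9 to 39 reads with a median of 14. A WT region with few reads was seldom in the KO list anywhere in the genome. Among WT regions of up to 12 reads, 1 of 11 by Trav segments was in both lists (9.09%), against 10.1% of the other WT regions. The counts were 0 of 10 against 19.95% at 13 to 15 reads, 3 of 9 (33.3%) against 34.6% at 16 to 19 reads, and 6 of 8 (75%) against 65.9% at 20 to 29 reads. At 30 to 49 reads 1 of 2 was in both lists, against 94.5%, the other being that of Trav2. With the other WT regions taken at the same read numbers as those by Trav segments, 33.5% had a KO region, a value inside the interval of 14.6 to 43.9. At this number of regions, a lower kept share by Trav segments than elsewhere at equal reads was not detectable.

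**Figure D4:**
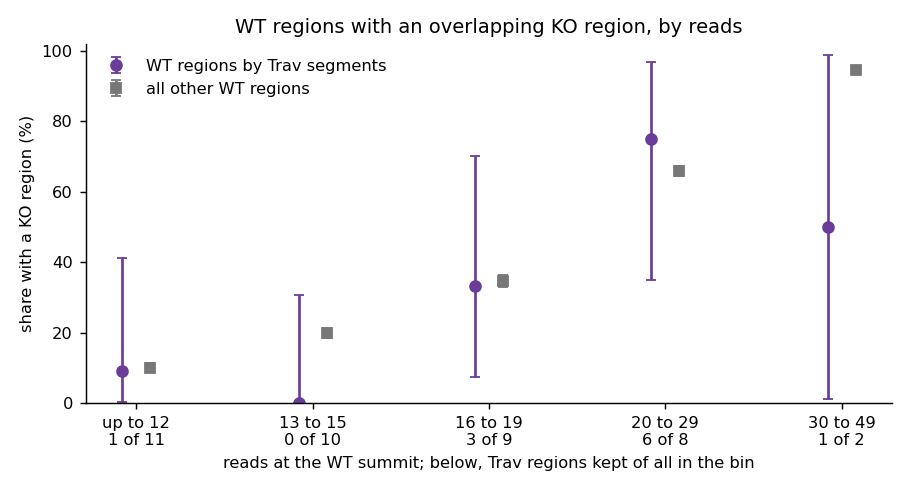
Share of WT regions that overlap a KO region in percent (y axis) by reads at the WT summit (x axis), for the regions by Trav segments (circles) and all other WT regions (squares), with exact 95% intervals. The other regions go from 10.1% at up to 12 reads to 94.5% at 30 to 49 reads, and each of the 5 intervals of the Trav regions holds the share of the other regions.

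Regions at the Traj-facing end were in both lists more often in number, 6 of 10 (60.0%, 26.2 to 87.8), than those with a summit before the segment, 5 of 30 (16.7%, 5.64 to 34.7). They also held more WT reads, with a median of 19.5 against 14. Among regions of at least 16 reads the counts were 6 of 9 (66.7%, 29.9 to 92.5) and 4 of 10 (40.0%, 12.2 to 73.8). Without family 15 they were 4 of 7 and 2 of 23. The part of read number in this difference was not tested, and 8 of the 10 Traj-facing regions came from the 3 duplicate sets named above. The split by end was chosen after the values were seen.

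In the 11 regions found in both lists, KO held 170 of 425 summit reads (40.0%, 35.3 to 44.8), where the depths of the lists alone would give 42.9%. The interval of each of the 11 shares held 42.9%. The median of the 11 shares was 39.6%, and the median over all 6875 regions with a single counterpart was also 39.6%. KO and WT summits lay at most 89 bp apart. KO had at least as many reads as WT at 2 of 11, the first region of Trav15-1-dv6-1 and that of Trav13-5, against 8.17% of the 6875.

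The shares differed by place along the locus. At the 4 regions by proximal plain segments KO held 48.4% to 52.8% of the reads, 64 of 128 in sum (50.0%, 41.04 to 58.96). At the 7 others, by Trav1 and the d and n copies, it held 31.4% to 45.9%, 106 of 297 in sum (35.7%, 30.2 to 41.4). The ranges of the single shares did not overlap. The intervals of the summed shares did, narrowly, with a lower limit of 41.04 for the proximal regions and an upper limit of 41.4 for the others. The proximal regions also had fewer WT reads, 12 to 19 against 20 to 43. Over all single-counterpart regions the median KO share was 44.4% at 12 to 19 WT reads and 37.8% at 20 to 43, and a weak WT region is among them only where the KO reads sufficed for a call. The part of this selection in the difference along the locus was not tested, and the split was made after the values were seen.

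**Figure D5:**
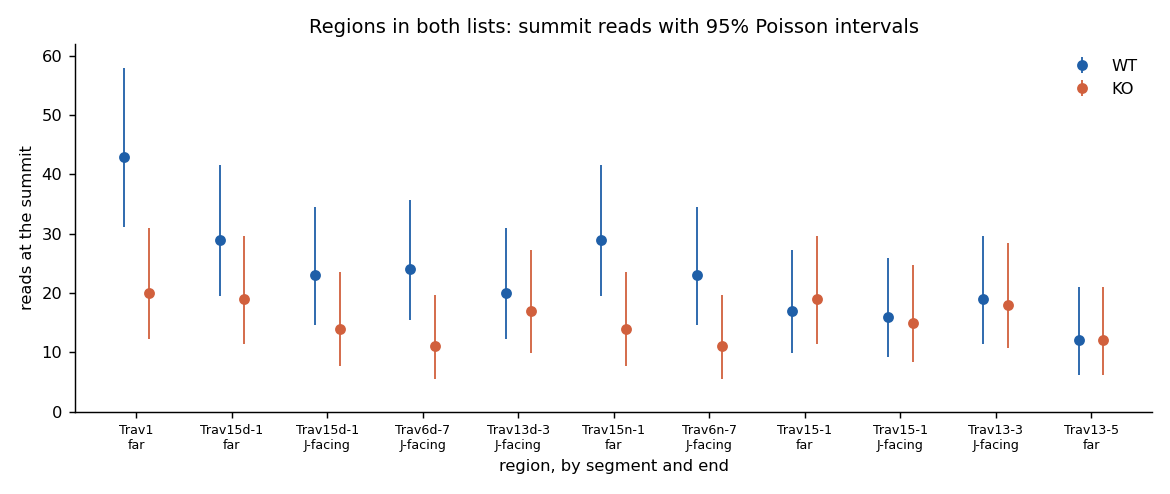
Reads at the summit (y axis) in WT and KO for the 11 regions found in both lists, in order along the chromosome (x axis, segment and end), with exact 95% Poisson intervals that cover counting error only. WT and KO values are within 2 reads of each other at the 4 rightmost, proximal regions, while WT is higher by 3 to 23 reads at the other 7. Reads are not scaled for depth, which in KO was 0.752 times that in WT.

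Few of the other segments of the locus had a region. The 60 Traj segments had 0 in either list (upper exact limit 5.96%), Trac 0, and of the Trd segments only 1 of 6 Trdv segments had a WT region. Of the V segments of other receptor loci, 1 of 35 Trbv had a region in each list, 1 of 7 Trgv had a WT region, and 0 of 162 Igkv and 0 of 3 Iglv had a region in either list. Among other genes within the length range of the Trav segments, 4.65% had a WT and 2.58% a KO region. The Traj limit lay above both shares and the Trbv share (2.86%) was near them, so these counts do not set Traj or Trbv apart. The upper exact limit for Igkv, 2.25%, lay below both. The immunoglobulin heavy chain V segments, Ighv, came nearest, with a WT region by 38 of 183 (20.8%, 15.1 to 27.4) and a KO region by 22 (12.02%, 7.69 to 17.6). Of their 40 WT regions, which had a median of 20 reads, 22 were in both lists (55.0%, 38.5 to 70.7), against 11 of 40 by Trav segments at a median of 15 reads. The difference between the loci was not tested. Of 12 genes of recombination and its control, 4 had a region at an end in WT and 2 in KO, beside 19.1% and 11.5% of all other genes. Rag1 and Rag2, which encode the recombinase, were called in WT and not in KO, as were 41.7% of the genes with a WT region at an end. Ctcf, a factor of chromatin looping, and Tcf3, an E protein gene, had a region in both lists, and the other 8 had none.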

How the data were processed

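ATAC-seq of 4 samples was deposited as 1 region list per group, each made from both samples of the group per the series' design text. MACS2 2.1.4, Bowtie2, deepTools 3.4.1, Picard, GATK, Trim Galore and FastQC are listed with build mm10, per the submitters' processing notes. Settings, including how duplicate and multiply placed reads were handled, are not given in the sources used here. Per region the authors deposited a score (the whole part of 10 times the -log10 q), a fold enrichment, a -log10 p and a -log10 q. These ratio, score and -log10 values are the authors' own and were used to describe, rank and filter regions; other deposited columns give positions, and the summit lists repeat them.

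Reads at a summit and the local background were solved from fold, taken as (reads + 1) / (background + 1), and the Poisson p. Whole read numbers met the deposited -log10 p within 0.001 on 100% of lines. The most frequent background was taken as relative depth. Sequencing totals were not used here. The solver and the overlaps were tested on simulated data.

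A region was in both lists when it overlapped by at least 1 bp. Positions are 1-based mm10. The gene table has no strand or exons. A region counted for each segment within 1000 bp, also in the counts of segments by family. It was given to its nearest segment only when the regions of a family and their ends were described. Every segment with a region is named; positions, folds and reads are given for those in both lists, the highest folds and Trav11n. Members and lists were chosen with earlier results of these data known. The planned motif search was not run. Alternatives covered the distance, the -log10 q threshold, the overlap rule, list length, pseudogenes, nearest segment and high local background. Scripts ran under Python 3.11.15 with scipy 1.17.1, pandas 2.3.3, matplotlib 3.10.9 and numpy 2.4.6.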

Additional observations from a re-analysis of the deposited data

How the results depend on the processing

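The count of 38 Trav segments with a WT region stayed between 31 and 40 under 6 of 10 alternatives. It was 20 when the region had to overlap the segment itself (0 bp), 13 with a -log10 q of at least 10, and 16 or 15 when the WT list was limited to as many regions as the KO list by fold or by -log10 q. The count of 9 with a KO region stayed at 8 or 9 under 7 alternatives and was 4 with a -log10 q of at least 10. The kept share of 27.5% ranged from 20% to 35.7% under 8 alternatives, 2 of them (plain copies only, 35.7%, and without family 15, 20%) chosen after seeing the data. It was 57.1% (8 of 14) when WT regions needed a -log10 q of 10 or more and 52.9% (9 of 17) with the WT list limited to the KO length by fold, both of which leave out the weaker WT regions. No paired analysis was possible because each list pools both samples of its group, and for the same reason no sample could be left out. Most WT regions here rest on 9 to 20 reads, so a missing KO region says only that none was called.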
